A study of Bos indicus with 9 samples.

Results

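ADCY5 encodes adenylyl cyclase 5, and the chromatin around it was compared across tissues in the stretch of chromosome 1 from 67400000 to 68200000 of the cattle assembly ARS-UCD1.2. All peaks that overlap this window of 800 kb were taken from the consensus peak lists of hypothalamus, muscle, and liver. They numbered 54 of 140923 listed peaks, of which 44 of 78528 were from hypothalamus, 7 of 40104 from muscle, and 3 of 22291 from liver. The window was chosen by the wide hypothalamus peak that covers the start of ADCY5. The values of that peak and the contrast between tissues are therefore a description and were not tested.

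Adenylyl cyclases are membrane enzymes that make cyclic AMP (cAMP) from ATP. Receptors act on them through G proteins, where the stimulatory alpha subunits raise their activity and the inhibitory ones lower it, and cAMP then activates protein kinase A, which phosphorylates targets such as the transcription factor CREB1. ADCY5 is known as a main cyclase of neurons in the striatum, where it works downstream of dopamine and adenosine receptors, and it is also known from the heart. Open chromatin marks promoters and enhancers, and the assay for transposase-accessible chromatin (ATAC-seq) finds it as DNA that the Tn5 transposase can cut.

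Libraries were made from frozen hypothalamus, muscle, and liver of the same 3 unrelated, post-pubertal Brahman heifers, an indicine breed, without any treatment, so each tissue had 3 libraries and the series 9. The 3 heifers of a tissue were combined into 1 list by the authors, so that values of the separate animals are not at hand. Tissues were therefore not tested against each other, and the read depth behind a peak is unknown from the lists. Each tissue is a mixture of cell types, and a region open in few cells cannot be told apart from one that is weakly open in many.

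Each peak has a position and 2 measures of strength. The summit value is the −log10 p at the highest point of the peak, combined over the heifers. The AUC sums the −log10 p over the bases of the peak as far as it exceeds the calling threshold, so it grows with height and with length. Neither value was scaled between lists, and a peak is therefore placed by its percentile, the share of peaks in its own list with a lower value. Peaks were called shared when they had at least 1 bp in common.

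The labels of the tissues were checked at marker genes whose starts could be placed. Of 9 liver markers 4 were placed (AHSG, KNG1, HRG, and TF), and the liver list had no peak at the start or in the body of any of them, while the hypothalamus list covered the starts of AHSG and TF. Of 9 muscle markers only CHRNA1, a subunit of the muscle acetylcholine receptor, was placed, and its start was covered in muscle alone. The hypothalamus annotation at hand ended at 97.0 Mb of chromosome 1. CHRNA1 lies on chromosome 2 and was therefore placed through a muscle or liver peak annotated to it. Its muscle peak is thus no independent check of the label. Of 10 neural markers 3 were placed, and the start of SOX2 was covered in hypothalamus alone, while SST and GAP43 were covered in none of the lists. At these genes the liver label was thus not borne out by liver peaks, and the absence of liver peaks in ADCY5 is to be read beside that. They are few loci, since KNG1, HRG, and AHSG start close together, from 80530699 to 80618770 on chromosome 1. Over the liver-specific peaks, the paper reports enrichment for motifs of the hepatocyte factors HNF4 and HNF1.

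The hypothalamus list was the densest in the window and mostly alone there. Of its 44 peaks, 39 (88.6%) had no overlap in muscle or liver, where 67.9% of the whole hypothalamus list and 74.8% of its peaks on chromosomes 1 to 29 and X had none. On chromosome 1 up to 97.0 Mb the share was 86.8% of 1707 hypothalamus peaks that cover no annotated gene start and 13.7% of 182 that cover one. Most peaks of the window covered no start, so the window was close to the share of such peaks. In muscle 2 of 7 peaks had no overlap in another list against 28.5% of the whole list, and in liver 1 of 3 against 9.93%. Of the whole lists, 30483 of 40104 muscle peaks and 12063 of 22291 liver peaks lay on chromosomes 1 to 29 and X. For muscle and liver the share without overlap on chromosomes alone was not computed here. Hypothalamus peaks covered 39656 bp of the window (4.96%), muscle peaks 3310 bp (0.414%), and liver peaks 1068 bp (0.134%). Over chromosome 1 as a whole the lists covered 1.59%, 0.502%, and 0.198% in the same order, so the window was above the chromosome in hypothalamus and below it in muscle and liver. The hypothalamus list is also the longest, and when each list was reduced to its 22291 peaks with the highest summits, the window kept 10 hypothalamus, 5 muscle, and 3 liver peaks, with 8 of the 10 without overlap. When the peaks with the largest AUC were kept instead, it held 8 hypothalamus (6 without overlap), 6 muscle, and 3 liver peaks. Hypothalamus was thus less far ahead of muscle at equal totals. The lists were cut over all sequences, so they need not be equal on chromosomes 1 to 29 and X, where 71028 of the 78528 uncut hypothalamus peaks lay. The share without overlap over the whole reduced hypothalamus list was not computed, so 8 of 10 and 6 of 8 have none beside them.

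**Figure D1:**
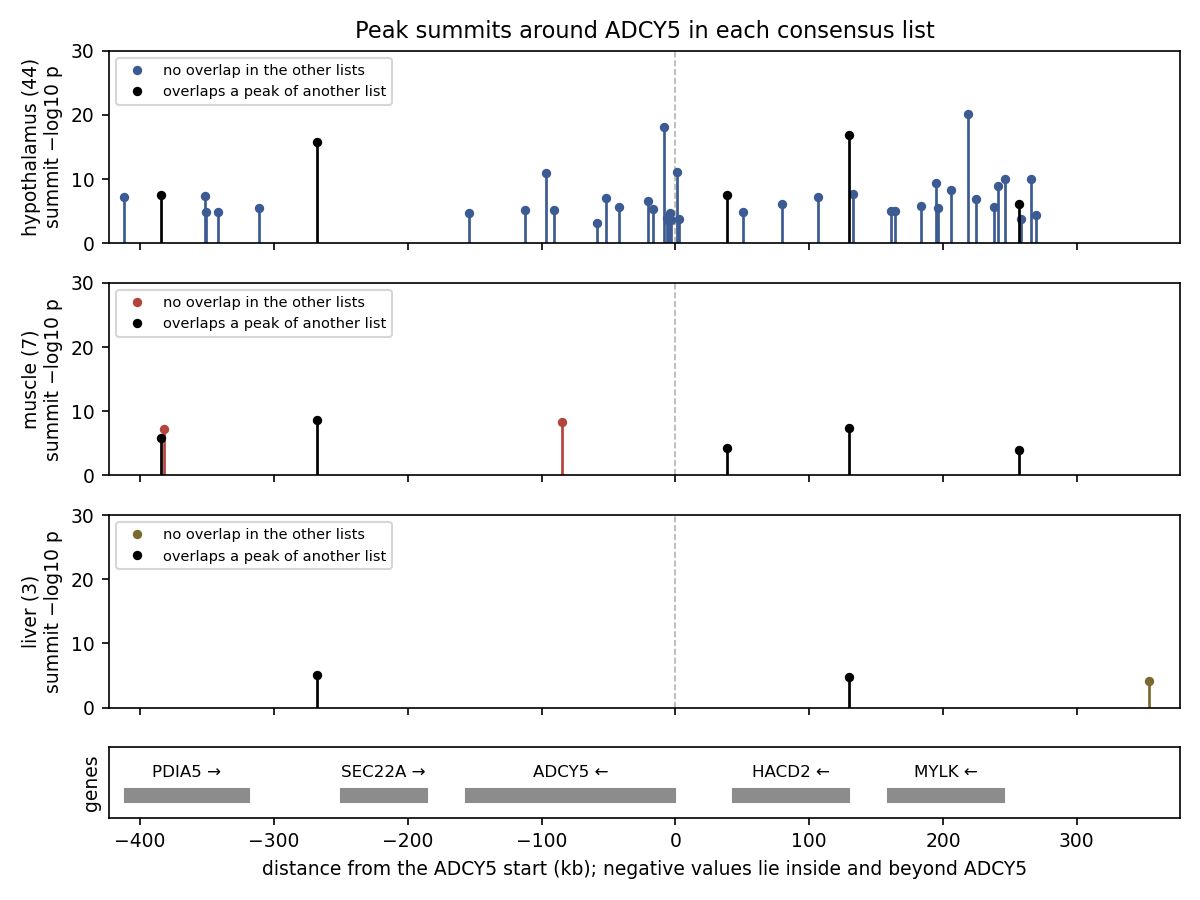
Summit −log10 p of each peak (vertical axis) against its distance from the ADCY5 start in kb (horizontal axis), with 1 panel for each consensus list and the gene models below, where arrows give the direction of transcription. Black marks are peaks that overlap a peak of another list. The 44 hypothalamus peaks spread over most of the window, while 7 muscle and 3 liver peaks are scattered and none of them lies near the ADCY5 start, which is the dashed line at 0.

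Windows of the same length were laid over chromosomes 1 to 29 and X to show how the ADCY5 window compares. Among 3260 windows, the median number of peaks was 16 for the hypothalamus list, 5 for muscle, and 2 for liver. The ADCY5 window, with 44, had more hypothalamus peaks than 86.2% of the windows, and 421 windows had more. Its 7 muscle peaks exceeded 57.7% of the windows and its 3 liver peaks 60.3%. Among the 449 windows with at least 44 hypothalamus peaks, the medians were 26 peaks in muscle and 9 in liver, and 29 windows had both 7 or fewer muscle peaks and 3 or fewer liver peaks. Windows rich in hypothalamus peaks were thus usually richer in the other lists than the ADCY5 window was.

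**Figure D2:**
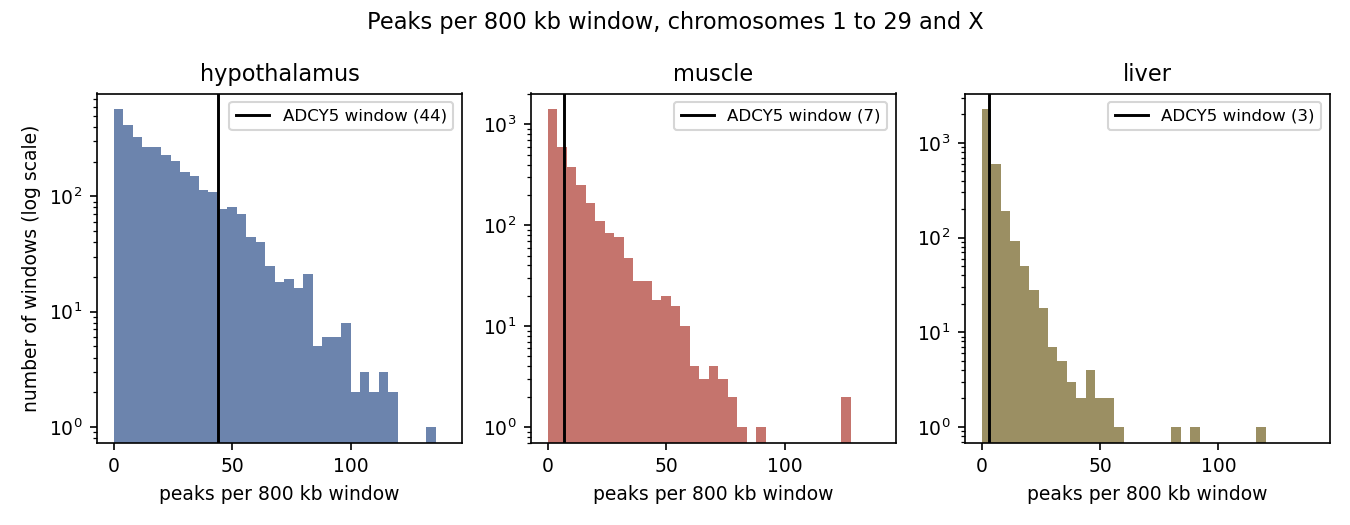
Number of peaks per window of 800 kb on chromosomes 1 to 29 and X (horizontal axis) against the number of windows (vertical axis, log scale) in each list, with the ADCY5 window as a black line. The line stands at 44 in hypothalamus, in the upper part of the distribution, and at 7 in muscle and 3 in liver, near the medians of 5 and 2.

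In the RefSeq gene models of the annotation, ADCY5 (gene ID 505740) runs on the minus strand from 67666355 to 67823121, which is 156.8 kb, with its start at 67823121. Hypothalamus had 15 peaks that overlap the gene and 1 more within 5 kb before its start. Muscle had 1 peak in the gene, and liver had none. The nearest muscle peak to the start was 38.0 kb away and the nearest liver peak 129.5 kb away. The hypothalamus peaks covered 10.4% of the gene and the muscle peak 0.434%. All 15 hypothalamus peaks of the gene were without overlap in the other lists, but so were 86.8% of 1707 hypothalamus peaks that cover no annotated start on chromosome 1 up to 97.0 Mb, the stretch for which annotation was at hand.

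The peak over the ADCY5 start ran from 67820492 to 67825133 and was 4642 bp long. Its AUC was 13188 and its summit −log10 p was 11.1. By length it was above 99.3% of the hypothalamus list and by AUC above 97.4%, but by summit only above 80.8%. The start peak was therefore exceptional for its width rather than its height, and by AUC per bp it stood above 74.4% of the list. It reached 2012 bp before the start and 2630 bp into the gene, and its summit lay 1184 bp before the start. Neither muscle nor liver had a peak under any part of it.

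Other gene starts on the same stretch of chromosome 1 give the start peak a frame. There, 182 hypothalamus peaks covered at least 1 of 299 annotated starts, and 25 of them (13.7%) had no overlap in muscle or liver, so a start open in hypothalamus alone was the less common case. The median length of the 182 peaks was 1703 bp, the median AUC 7479, and the median summit −log10 p 14.7. The ADCY5 peak ranked 3 of 182 by length and 23 by AUC, but only 133 by summit. Among the 25 without overlap it ranked 1 by length and by AUC, and 6 by summit. Next by length in that group came SOX2 (3002 bp), a transcription factor of neural progenitors, AHSG (2606 bp), a plasma glycoprotein, and OLIG1 (2436 bp), a transcription factor of oligodendrocytes.

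**Figure D3:**
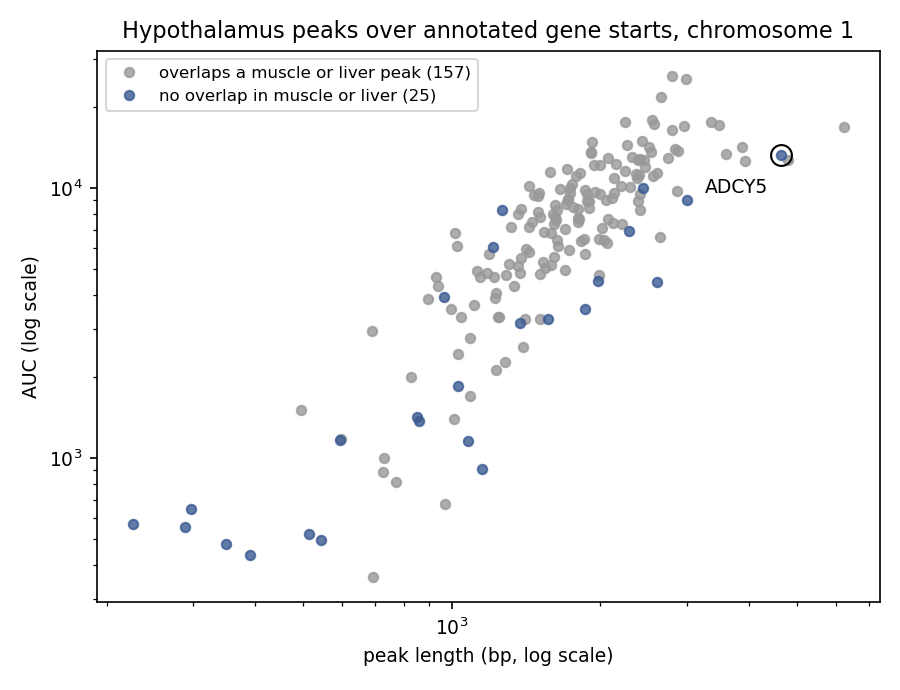
AUC (vertical axis, log scale) against length in bp (horizontal axis, log scale) of the 182 hypothalamus peaks that cover an annotated gene start on chromosome 1 up to 97.0 Mb. Blue points are the 25 peaks without overlap in muscle or liver, and the circled ADCY5 peak, at 4642 bp and an AUC of 13188, lies farthest to the right and highest among them.

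The intronic part of ADCY5 carried a peak with a higher summit than the start itself. It lay in intron 1 of 20 from 67813014 to 67815745, with its summit 8.24 kb inside the gene, and was 2732 bp long. Its summit −log10 p of 18.1 was above 95.5% of the list and its AUC of 7984 above 91.8%. The start peak and this intronic peak had nearly the same AUC per bp, 2.84 and 2.92, so the larger AUC of the start peak went with its greater length.

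Between these wide peaks lay 4 weak ones, all in intron 1. The peak from 67816600 to 67817251 had a summit −log10 p of 3.98, and the peak from 67817363 to 67817721 had one of 3.69. The peak from 67818028 to 67819530 reached 4.75 over 1503 bp, and the last, from 67819661 to 67820095, reached 3.68. Each of the 4 was below the median summit of the list (5.99), although the one of 1503 bp was longer than 85.6% of the list. A further weak peak stood before the gene from 67825804 to 67826095 (summit −log10 p 3.72), 2.83 kb from the start.

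Farther into intron 1, a peak from 67801806 to 67803310 had a summit −log10 p of 6.52 and a length of 1505 bp, and a shorter one from 67806065 to 67806342 had a summit of 5.40. When hypothalamus peaks with gaps of at most 12500 bp were joined, these peaks, the weak ones, and the 2 wide ones formed a run of 9 peaks from 67801806 to 67826095. The run was 24.3 kb long from end to end and 51.0% of it was covered by peaks. Its summed AUC of 26371 ranked 1005 among 31450 runs on chromosomes 1 to 29 and X, above 96.8% of them, and the 2 wide peaks made up 80.3% of that sum. The muscle and liver lists had no peak anywhere in the run.

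**Figure D4:**
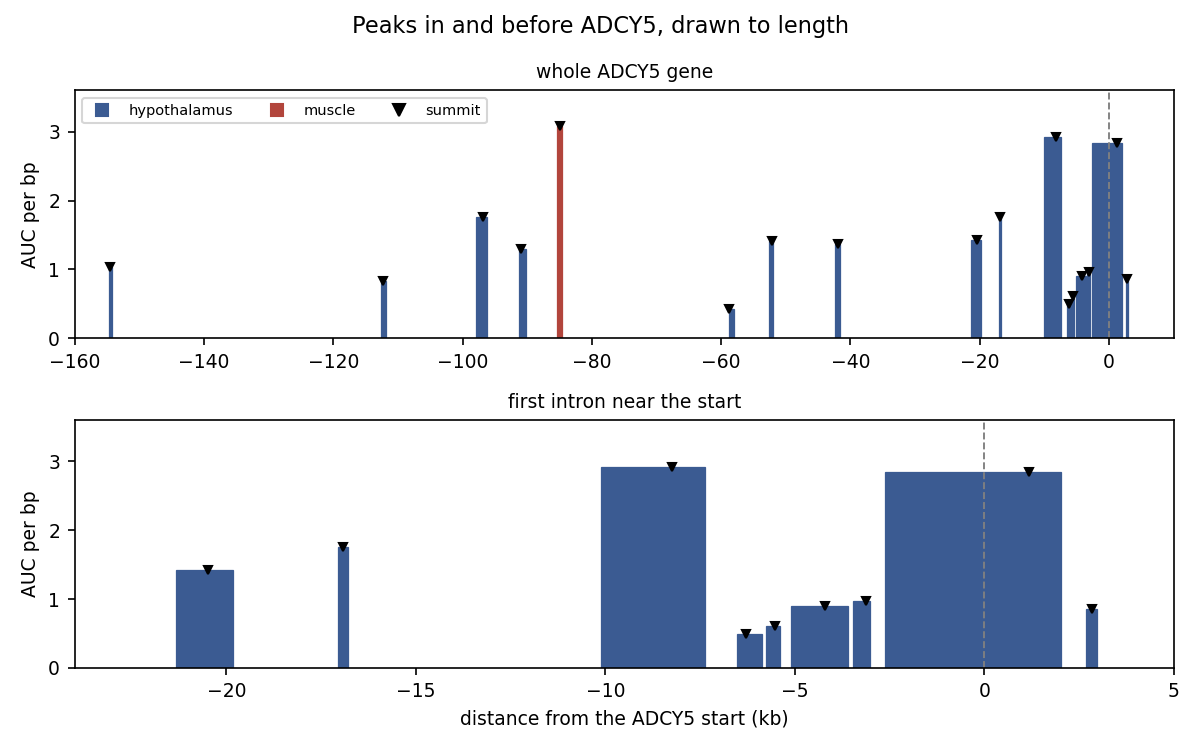
Hypothalamus peaks (blue) and the muscle peak (red) in and just before ADCY5, drawn from start to end against the distance from the ADCY5 start in kb, with AUC per bp as height, so that the area of a box is the AUC of the peak. Triangles mark summits, and the lower panel enlarges the run of 9 hypothalamus peaks, where the boxes of the intronic peak (2.92) and the start peak (2.84) stand out by height and width.

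The rest of the gene had peaks at wider spacing. In intron 1 there were 3 more hypothalamus peaks, from 67764272 to 67765099 with a summit −log10 p of 3.17, from 67770558 to 67771168 with 7.02, and from 67780680 to 67781449 with 5.71. Of these the first was among the lowest summits of the whole list, above only 0.346% of it. Intron 3 held a stronger peak from 67725237 to 67726855 (summit −log10 p 10.9, AUC 2850, 1619 bp), which was above 80.4% of the list by summit.

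Besides the peak over the start, which is annotated as promoter, 3 hypothalamus peaks were annotated to exons of ADCY5. The peak from 67731859 to 67732886 touched exon 2 of 21 (summit −log10 p 5.11), and the one from 67710478 to 67711308 touched exon 6 (5.18). The last, from 67668493 to 67668941, touched exon 20 near the end of the gene (4.68). These 3 were below the median summit of the list. Over all 15 peaks of the gene, summits ran from 3.17 to 18.1 with a median of 5.18 and only 5 were above the median of the list, while 8 were above its median AUC.

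By number, ADCY5 was dense in hypothalamus peaks but not extreme. With 15 peaks it had 9.57 per 100 kb, where the median of the 44 genes of at least 100 kb on the stretch was 2.26, and 6 of these genes had more per 100 kb. By the plain number of peaks, 6 of the 297 genes placed there had more than ADCY5. Genes were placed through the peaks annotated to them, so genes without any such peak do not enter these medians.

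The single muscle peak in ADCY5 had no counterpart in hypothalamus. It lay in intron 1 from 67737750 to 67738430, with its summit 84.9 kb from the start, and the nearest hypothalamus peak was 4.86 kb away. Its AUC of 2101 was above 83.9% of the muscle list, and its summit −log10 p of 8.36 was also above 83.9%. It was the muscle peak with the largest AUC in the window and was 681 bp long. Intron 1 was thus open in both tissues, but at different places, with 10 hypothalamus peaks and 1 muscle peak and no base in common.

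**Figure D5:**
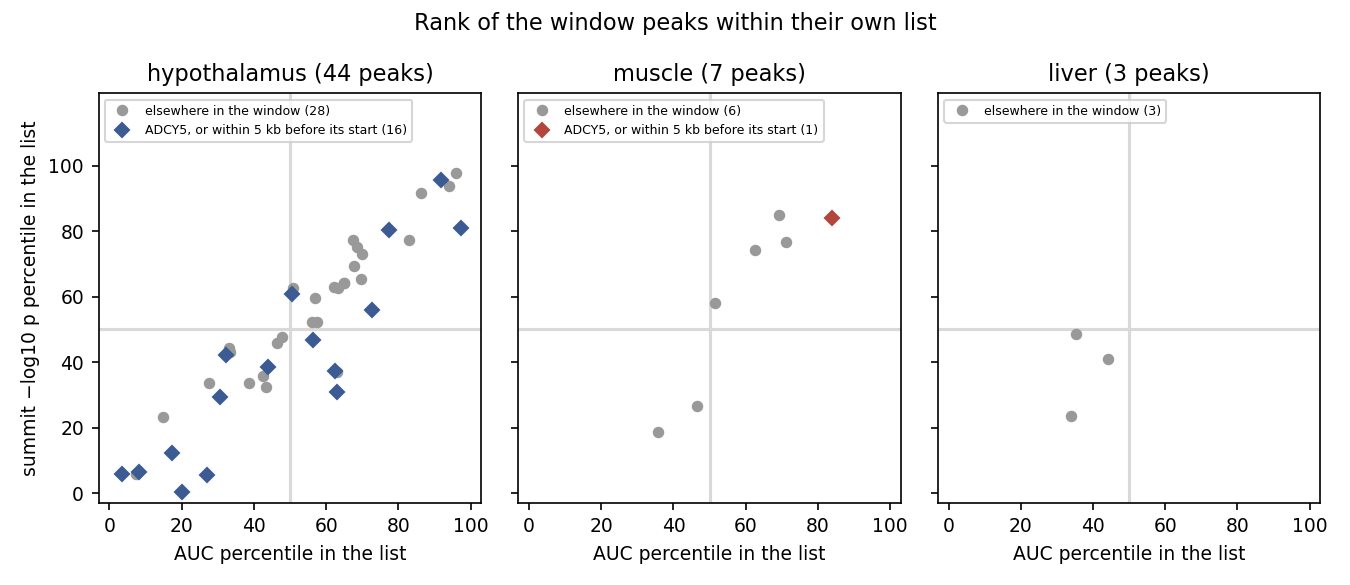
Percentile of each peak of the window within its own list, with AUC on the horizontal and summit −log10 p on the vertical axis, in 1 panel for each tissue. Diamonds are peaks in ADCY5 or within 5 kb before its start and gray circles all others; the hypothalamus peaks span nearly the whole range, the muscle peak of ADCY5 lies at 83.9 on both axes, and the 3 liver peaks lie below 50 on both.

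Shared regions in the window all lay outside ADCY5. They numbered 5, and each joined a hypothalamus to a muscle peak (31.2% of the whole hypothalamus list overlap a muscle peak), while 2 of them also had a liver peak (21.7% of the list overlap one). The shared interval of all 3 lists before SEC22A, a gene of vesicle transport, ran from 67555248 to 67555509, and the other ran from 67952590 to 67952947 over the start of HACD2, an enzyme of long-chain fatty acid synthesis. The hypothalamus peaks there were 1185 and 1736 bp long, against 310 and 380 bp in muscle and 300 and 358 bp in liver.

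At the HACD2 start the hypothalamus summit reached a −log10 p of 16.9, above 93.7% of its list. The muscle summit there reached 7.43, above 76.6%, and the liver summit 4.70, above 41.1%. The summits lay close together, 6 bp apart between hypothalamus and muscle and 5 bp apart between hypothalamus and liver. Before SEC22A the hypothalamus summit was 15.7 (above 91.7%), the muscle summit 8.56 (85.0%), and the liver summit 5.01 (48.6%), and the summits of hypothalamus and muscle fell on the same base. In both regions the order of the percentiles was hypothalamus, muscle, liver. The lists differ in length and in their share of peaks without overlap. The order is thus one of ranks within unlike lists and not a measure of openness between tissues. ADCY5 and HACD2, neighbors transcribed in the same direction, thus differed in that the HACD2 start had a peak in every list and the ADCY5 start in hypothalamus alone.

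The shared region nearest to the ADCY5 start lay between both genes. Its hypothalamus peak ran from 67861141 to 67861892 (summit −log10 p 7.44, above 64.0% of the list) and its muscle peak from 67861107 to 67861697 (4.30, above 26.6%). The overlap was 557 bp, which is 94.2% of the muscle peak, but the summits were 226 bp apart, farther than in the other 4 shared regions. Of the remaining shared regions, 1 lay in intron 3 of PDIA5, a protein disulfide isomerase of the endoplasmic reticulum, where the summits were 9 bp apart. The other lay about 11.4 kb before the start of MYLK, where the summits were 4 bp apart.

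Around ADCY5 the neighboring genes differed in the peaks on their gene models. Starts are those of the models used, and other starts of a gene were not searched for. SEC22A had no peak of any list in its body or over its start, and it lay inside the longest gap between hypothalamus peaks of the window, 112.6 kb from 67555880 to 67668492, which ends in the last exons of ADCY5. PDIA5 had 5 hypothalamus and 2 muscle peaks, and its start was covered in hypothalamus alone, by a peak of 857 bp with a summit −log10 p of 7.26. HACD2 had 4 hypothalamus peaks and 1 in each other list.

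MYLK, the myosin light chain kinase of smooth muscle, had 10 hypothalamus peaks in the body of its gene model and none from muscle or liver. That is 11.6 per 100 kb, above ADCY5. The peak from 68040019 to 68043485 in intron 3 of MYLK had the highest summit of the window, with a −log10 p of 20.1, and the second largest AUC, 11252. No peak covered the MYLK start, and the nearest hypothalamus peak lay 881 bp before it. By AUC, the 5 strongest hypothalamus peaks of the window were those over the ADCY5 start, in MYLK intron 3, over the HACD2 start (9537), in ADCY5 intron 1, and before SEC22A (5384). Of these the ADCY5 and MYLK peaks were found in hypothalamus alone, and the other 2 were shared by all lists.

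In liver, the only peak of the window without overlap ran from 68177109 to 68177518 (summit −log10 p 4.11, AUC 399). It lay between genes, 108.6 kb before the MYLK start and 82.3 kb from the nearest hypothalamus peak. In muscle, besides the peak in ADCY5, the one from 67440898 to 67441387 in intron 3 of PDIA5 had no overlap (summit −log10 p 7.18). At the ends of the window, the last hypothalamus peak before it had an AUC of 351 and the first inside an AUC of 1366, and the last inside had an AUC of 299 and the first past it an AUC of 383. The nearest muscle peaks outside had an AUC of 228 and 683, and the nearest liver peaks 353 and 293, so the window ends did not cut off a strong peak next to them.

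Other genes of cAMP signaling could be placed only in part. None of the other 9 adenylyl cyclases had a start in the annotation used, and of 24 genes that act around them 4 were placed. These 4 lie on chromosomes 2 and 3, while the hypothalamus annotation at hand ended at 97.0 Mb of chromosome 1. They were therefore placed through muscle or liver peaks annotated to them. Genes with annotated peaks in hypothalamus alone could not enter there, so muscle and liver peaks at the placed genes are favored. The start of GNAI3, an inhibitory G protein subunit, was covered in all 3 lists (summit −log10 p 16.2 for hypothalamus, 7.47 for muscle, and 4.95 for liver). The starts of PDE4B, which breaks down cAMP, and RAPGEF4, which binds it, were covered in hypothalamus alone, with summits of 10.3 and 7.55 and lengths of 1226 and 767 bp. On chromosome 1 up to 97.0 Mb, 13.7% of 182 start-covering hypothalamus peaks had no overlap. That share was not computed for chromosomes 2 and 3.

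PDE4B and RAPGEF4 nevertheless had muscle peaks in the gene body. PDE4B had 21 hypothalamus, 13 muscle, and 2 liver peaks, and RAPGEF4 had 12, 6, and 0. CREB1 had no peak at the start or in the body of its gene model in any list.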

How the data were processed

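Reads had been mapped by the authors to ARS-UCD1.2 (HISAT2, several alignments kept), and Genrich 0.6.1 in its ATAC-seq mode had called the peaks after PCR duplicates and mitochondrial reads were removed. The deposited signal is the AUC, the deposited −log10 p is that of the summit, not corrected for multiple tests, and the deposited score is AUC per bp capped by the peak caller. Reads with several alignments count in fractions, which can blur repeats. Starts, deposited from 0, are printed from 1.

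Overlaps, percentiles, joined runs, and windows were computed with python 3.11.15, numpy 2.4.6, and pandas 2.3.3, and drawn with matplotlib 3.10.9. The code was tested on simulated data. Gene models and features are those of the authors' ChIPseeker annotation (RefSeq), joined by peak name. Named genes are all genes of the window and placed members of lists of cyclases, cAMP signaling, and markers. Named peaks are those in or near ADCY5, shared, among the 5 largest by AUC, or at the window ends; other peaks, and SOX2, AHSG, and OLIG1 at their starts, were chosen after their values were seen. Members and lists were chosen with earlier results of these data known. No genome sequence was used here. Alternatives changed the peaks kept, overlap, window, run gap, and scale.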

Additional observations from a re-analysis of the deposited data

How the results depend on the processing

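When only peaks with summits of 5 or more were kept, the window held 31 hypothalamus peaks (28 without overlap, 9 in or before ADCY5, 32635 bp), 5 muscle peaks, 1 liver peak, and 1 interval in all lists. Next, the strongest 22291 peaks of each list by summit, over all sequences, were kept. Then 10 hypothalamus peaks stayed in the window, 8 of them without overlap, 3 in or before ADCY5, covering 18629 bp, beside 5 muscle peaks. By AUC these were 8, 6, 4, and 18299 bp, beside 6 muscle peaks. A window of 400 kb held 24 hypothalamus (22 without overlap, 24610 bp), 3 muscle, and 1 liver peak and 1 interval in all lists. The start peak stood at 74.4% by AUC per bp, and on chromosomes alone at 80.3% by summit and 99.4% by length. The summed AUC of its run stood at 96.4% over all sequences, 98.9% with gaps of at most 3 kb, and 98.4% with 5 kb. Other rules for overlap gave 38 to 40 peaks without overlap. Where the peaks kept or the overlap rule changed, the share without overlap over the whole hypothalamus list was not computed. Those counts without overlap are therefore given without it. No paired analysis was possible because the 3 heifers of a tissue were combined into 1 list, and leaving out a heifer was not run for the same reason.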
